A study of Saccharomyces cerevisiae with 12 samples.

Results

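The assembly factors of the large ribosomal subunit are a set of 52 genes of budding yeast, given as a list of names that was drawn up with earlier results of these data known. They are 52 of the 7109 gene identifiers in the count table. All 52 were found, 12 by the symbol printed in the table and 40 by matching their identifiers to RefSeq symbols of assembly R64. The RNA was polyadenylated RNA, sequenced from 12 libraries, which the labels divide into 4 groups with 3 biological replicates each. Every group is in BY4741, a laboratory yeast that carries auxotrophic markers, and cells grew in YPD, a rich medium with glucose. The groups are the wild type without treatment, the wild type after methyl methanesulfonate (MMS) for 90 min, the hel2 deletion strain without treatment, and the hel2 deletion strain after MMS for 90 min. MMS adds methyl groups to the bases of nucleic acids, RNA included. The product of HEL2 is an E3 ligase that ubiquitinates ribosomes once they have run into each other on a messenger RNA. The labels give no dose of MMS and do not say whether the deletion strain is 1 clone.

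A yeast ribosome is built in the nucleolus, where ribosomal RNA is transcribed, cleaved, modified and folded together with ribosomal proteins. Precursors of the large subunit are bound in turn by RNA helicases, methyltransferases, scaffold proteins and GTPases, which leave as the particle moves through the nucleoplasm and the nuclear pore into the cytoplasm, where the last factors are removed. Genes for these factors are known in yeast as part of the ribosome biogenesis regulon, which is expressed strongly during growth on glucose, activated by Sfp1 and repressed by Dot6, Tod6 and Stb3 when growth signals through TORC1 fall. The comparisons address how this programme stands after alkylation damage and whether it differs in a strain that lacks the collision sensor.

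Library totals ran from 36472686 to 53638964 counts, and 6463 genes, all 52 factors among them, passed the filter on low counts. The deleted gene HEL2 was counted 2105, 1869 and 2431 times in untreated and 928, 1522 and 2185 times in treated wild type libraries, and 27, 19 and 20 times in untreated and 35, 39 and 29 times in treated deletion libraries, as the labels of the strains require. The strains also differ at the marker LEU2, with 2 to 28 counts in wild type libraries and 19374 to 28105 in deletion libraries. The loss of HEL2 and this LEU2 difference go together in every library. Their effects cannot be told apart in any comparison between the strains. At the marker URA3, replicate 2 of the treated wild type had 378 counts, and the other libraries had 2 to 12. What lies behind that URA3 count was not tested. Over all libraries the marker MET17 had 16 to 105 counts and HIS3 3334 to 18212. Replicate 1 of the treated wild type stood apart. It had the lowest total, its log2 deviation from the other two replicates over all genes had an SD of 0.493, the highest of the 12 libraries, and 47 of the 52 factors were lowest there within the group, with a median log2 deviation of -0.47. For the 52 factors as a set, counts passing and medians that involve the treated wild type are given with and without this library. So is the relation of level with the difference between the treated strains.

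Summed over the 52 genes, the share of all counts was 0.472, 0.496 and 0.517% in the replicates of the untreated wild type and 0.137, 0.208 and 0.193% in those of the treated wild type. The deletion strain had shares of 0.467, 0.404 and 0.388% before treatment and 0.133, 0.132 and 0.125% after it. The share was lower in each treated library than in each untreated library of either strain, and it was lower in each treated deletion library than in each treated wild type library. These are shares of sequenced RNA, so a smaller amount per cell and a rise of other transcripts cannot be told apart. Levels are given as CPM, in which counts are divided by a library size scaled with TMM. CPM is not divided by gene length, so levels are compared between libraries and not between genes.

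**Figure D1:**
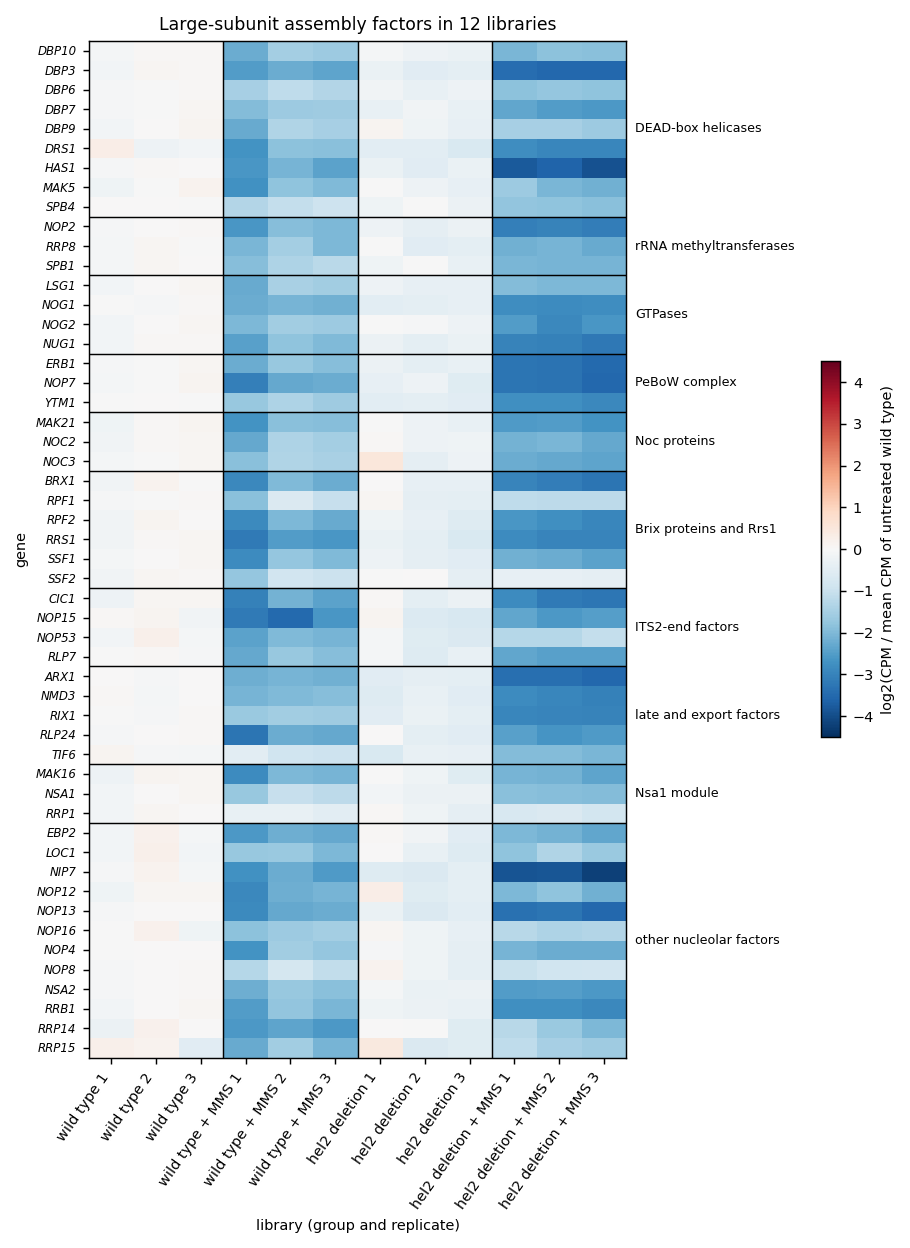
Level of the 52 large-subunit assembly factors in each of the 12 libraries (columns), as log2 of CPM over the mean CPM of the untreated wild type, with genes (rows) grouped by role. The treated libraries of both strains are blue for nearly every gene, SSF2 in the treated deletion strain and RRP1 in both strains are the palest, and replicate 1 of the treated wild type is darker than replicates 2 and 3 for most genes.

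In the wild type, all 52 factors fell after MMS, a change that 34.2% of all genes tested shared. The threshold was an adjusted p under 0.05 (edgeR, quasi-likelihood, Benjamini-Hochberg over every gene tested). The median log2 fold change was -1.97, against 0.02 over all 6463 genes tested, and the single values ran from -3.05 for NOP15 to -0.38 for RRP1. Of the 52 factors, 50 passed and were at least 2-fold lower, where 14.5% of all genes did, and RRP1 and TIF6 were the other two. None of the 52 had any overlap between treated and untreated libraries, where 71.4% of all genes had none. Without replicate 1 of the treated wild type all 52 still fell, where 33.6% of all genes did, with a median of -1.86. In that run 47 passed and were at least 2-fold lower, as were 901 of all 6500 genes tested.

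In the deletion strain 51 of 52 factors fell after MMS, where 36.2% of all genes fell, and SSF2 was the 1 that missed the threshold. The factors' median was -2.10 on the log2 scale, that of all genes 0.06, with a range from -3.41 for NIP7 to -0.26 for SSF2. A fall of at least 2-fold past the threshold was found in 18.0% of all genes and in 47 of the 52. Treated and untreated libraries of the deletion strain did not overlap for 51 of the 52, where 81.4% of all genes had no overlap. Under library-size scaling, which moves the median of all genes to 0.33 in the wild type and 0.61 in the deletion strain, the members' medians were -1.64 and -1.55, with 51 and 46 lower. The shares of all genes called under that scaling are not given here. Counts of factors in that setting therefore show only how their own calls moved.

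The 9 DEAD-box helicases, ATP-driven enzymes that unwind or remodel RNA in the precursor, all fell in both strains. HAS1, a helicase that acts in both subunits' precursors, stood at 248, 264 and 256 CPM in the untreated wild type and 42, 59.97 and 48.6 CPM with MMS, and 209, 181 and 206 CPM in the untreated deletion strain and 18.6, 20.9 and 17 CPM with MMS. DBP3, which helps cleavage in the first internal spacer of the ribosomal RNA, stood at 138, 159.6 and 158 CPM in the untreated wild type and 26.4, 32.2 and 29.5 CPM with MMS, and 123, 108 and 113 CPM in the untreated deletion strain and 14, 13.3 and 13.2 CPM with MMS. For both genes the 4 groups lie in the same order without overlap, highest in the untreated wild type and lowest in the treated deletion strain. HAS1 fell by 2.35 ± 0.12 (log2 fold change ± SE, n = 3 per group, adjusted p = 2.24e-09) in the wild type and by 3.40 ± 0.13 (adjusted p = 5.6e-11) in the deletion strain, where 9.46% of the untreated mean was left, against 19.6% in the wild type. DBP3 fell by 2.37 ± 0.09 and 3.08 ± 0.09. Among the other helicases, DBP6, DBP7 and DBP9, early factors that act with the Npa1 complex or beside it, changed by -1.31, -1.72 and -1.65 in the wild type. MAK5, DRS1, DBP10 and SPB4, which act on later nucleolar particles, changed by -2.12, -2.09, -1.77 and -1.10.

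The 3 methyltransferases modify ribosomal RNA of the large subunit. NOP2, an essential cytosine methyltransferase, stood at 147, 152 and 156 CPM in the untreated wild type and 24.8, 39.99 and 37 CPM with MMS, and 129, 115 and 127 CPM in the untreated deletion strain and 18.1, 18.8 and 17.5 CPM with MMS. RRP8, which methylates an adenine, stood at 25.2, 28.3 and 26.2 CPM in the untreated wild type and 6.41, 9.15 and 6.61 CPM with MMS, and 26.5, 18.9 and 19.4 CPM in the untreated deletion strain and 5.9, 6.2 and 5.59 CPM with MMS. SPB1, which methylates a ribose in the peptidyl transferase centre, stood at 71.6, 81.6 and 77.2 CPM in the untreated wild type and 20.1, 29.1 and 33.3 CPM with MMS, and 66.9, 76.1 and 60.9 CPM in the untreated deletion strain and 18.3, 18 and 17.9 CPM with MMS. The treated libraries were lower than the untreated ones for each of them, and the treated strains did not overlap, with the deletion strain lower, although RRP8 missed the threshold there (-0.33 ± 0.16, adjusted p = 0.0908). NOP2 fell by 2.15 ± 0.14 in the wild type and 2.77 ± 0.14 in the deletion strain, SPB1 by 1.48 ± 0.15 and 1.91 ± 0.15, and RRP8 by 1.85 ± 0.16 and 1.87 ± 0.16. The largest adjusted p among these 6 values was 1.1e-06. From the list of other methyltransferases of the same RNA, BMT5 fell by 2.08 ± 0.18 and 1.56 ± 0.17, BMT6 by 1.11 ± 0.11 and 1.5 ± 0.11 and RCM1 by 0.96 ± 0.12 and 1.03 ± 0.12. BMT2 did not pass in either strain, at 0.17 ± 0.13 and -0.02 ± 0.13.

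GTPases act as switches at several steps from the nucleolus to the cytoplasm. NOG1, which joins early and is released in the cytoplasm, stood at 463, 455 and 483 CPM in the untreated wild type and 98.6, 109 and 105 CPM with MMS, and 339, 344 and 360.3 CPM in the untreated deletion strain and 68.1, 65.1 and 67.1 CPM with MMS. NUG1, a nuclear GTPase needed for export, stood at 209.9, 241 and 239.5 CPM in the untreated wild type and 42.4, 64.9 and 58 CPM with MMS, and 192, 169 and 186 CPM in the untreated deletion strain and 29, 27.9 and 24.7 CPM with MMS. NOG2, which holds the place later taken by the export adaptor Nmd3, stood at 143, 158 and 165 CPM in the untreated wild type and 38.5, 52.2 and 50.3 CPM with MMS, and 152, 150.01 and 134 CPM in the untreated deletion strain and 27.2, 20.9 and 25.5 CPM with MMS. All 3 were lowest in the treated deletion strain, whose libraries did not overlap with those of the treated wild type. NOG1 fell by 2.16 ± 0.07 in the wild type and 2.38 ± 0.07 in the deletion strain, NUG1 by 2.06 ± 0.13 and 2.74 ± 0.14, and NOG2 by 1.72 ± 0.12 and 2.57 ± 0.13. LSG1, the cytoplasmic GTPase that releases Nmd3, fell by 1.72 ± 0.16 and 1.67 ± 0.16.

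Nop7, Erb1 and Ytm1 form the PeBoW complex, a scaffold of the middle nucleolar steps that the AAA-type ATPase Rea1 later strips off. ERB1 stood at 206, 213 and 226 CPM in the untreated wild type and 45.5, 66.7 and 56.7 CPM with MMS, and 178, 157 and 169 CPM in the untreated deletion strain and 22.3, 21.7 and 19.1 CPM with MMS. NOP7 stood at 185, 192 and 213 CPM in the untreated wild type and 23.2, 39.5 and 41.6 CPM with MMS, and 152, 167 and 136 CPM in the untreated deletion strain and 20.1, 19.8 and 17.2 CPM with MMS. YTM1 stood at 237, 243 and 240.2 CPM in the untreated wild type and 73.4, 90.9 and 80.3 CPM with MMS, and 172, 177 and 170.5 CPM in the untreated deletion strain and 35.4, 35.5 and 32.1 CPM with MMS. All 3 genes had the same order of groups without overlap, from the untreated wild type through the untreated deletion strain and the treated wild type to the treated deletion strain. ERB1 fell by 1.93 ± 0.12 in the wild type and by 3.00 ± 0.13 in the deletion strain, which left 26.2% and 12.5% of the untreated means. NOP7 fell by 2.5 ± 0.18 and 2.99 ± 0.18, and YTM1 by 1.56 ± 0.08 and 2.34 ± 0.08. REA1, the ATPase, which is no member, fell by 2.27 ± 0.13 in the wild type and 3.14 ± 0.14 in the deletion strain.

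The Noc proteins bind as pairs to early and later precursors. MAK21, also called Noc1, stood at 83.1, 97.4 and 104 CPM in the untreated wild type and 14.6, 25.7 and 24.9 CPM with MMS, and 93.7, 81.3 and 74.7 CPM in the untreated deletion strain and 16.4, 16.5 and 14.5 CPM with MMS. NOC2, the partner in both pairs, stood at 90.9, 106 and 109 CPM in the untreated wild type and 20.8, 38.5 and 35.1 CPM with MMS, and 105, 87.3 and 90.05 CPM in the untreated deletion strain and 23.1, 24.5 and 20.8 CPM with MMS. NOC3 stood at 74.2, 78.2 and 82.6 CPM in the untreated wild type and 21.1, 30.8 and 28.2 CPM with MMS, and 112, 59.8 and 67 CPM in the untreated deletion strain and 16.7, 16 and 15.3 CPM with MMS. Treated and untreated libraries did not overlap in either strain for these 3 genes, whereas the 2 untreated groups overlapped for each. MAK21 fell by 2.12 ± 0.18 in the wild type and 2.40 ± 0.18 in the deletion strain, NOC2 by 1.69 ± 0.18 and 2.04 ± 0.18, and NOC3 by 1.55 ± 0.20 and 2.31 ± 0.21. NSA1, MAK16 and RRP1, which with Rpf1 form a module on the solvent side of the early particle, differed among themselves. MAK16 stood at 25.3, 32.5 and 31.8 CPM in the untreated wild type and 4.19, 7.37 and 6.99 CPM with MMS, and 29.5, 26 and 20.7 CPM in the untreated deletion strain and 6.99, 6.89 and 5.75 CPM with MMS. NSA1 stood at 88.6, 98 and 103 CPM in the untreated wild type and 29.5, 47.3 and 42.6 CPM with MMS, and 88.7, 80.5 and 81 CPM in the untreated deletion strain and 26.5, 25.5 and 25 CPM with MMS. RRP1, by contrast, stood at 31.8, 37.2 and 35.7 CPM in the untreated wild type and 27.8, 27.4 and 25.4 CPM with MMS, and 36.6, 30.5 and 26.3 CPM in the untreated deletion strain and 21, 22.2 and 19.7 CPM with MMS. The fall of RRP1 was the smallest of the 52 in the wild type, 0.38 ± 0.11 (adjusted p = 0.00988), and 0.57 ± 0.11 (adjusted p = 5.07e-04) in the deletion strain, while MAK16 fell by 2.26 ± 0.20 and 1.96 ± 0.20. Under library-size scaling RRP1 did not pass in the wild type (-0.07, adjusted p = 0.714) or in the deletion strain (-0.02, adjusted p = 0.895).

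Brix proteins share an RNA-binding fold. RPF2, a Brix protein, and RRS1 bring the small ribonucleoprotein with ribosomal proteins Rpl5 and Rpl11 into the particle. RRS1 stood at 82, 95.5 and 97.3 CPM in the untreated wild type and 9.98, 16.2 and 14.7 CPM with MMS, and 73.9, 67.1 and 57.2 CPM in the untreated deletion strain and 13, 11.8 and 11.7 CPM with MMS. RPF2 stood at 62.2, 75.9 and 70.3 CPM in the untreated wild type and 9.42, 17.3 and 14.3 CPM with MMS, and 60.1, 53.4 and 46.8 CPM in the untreated deletion strain and 11.4, 10.3 and 8.99 CPM with MMS. BRX1, which works with Ebp2, stood at 108, 137 and 121 CPM in the untreated wild type and 16.4, 30.8 and 26.1 CPM with MMS, and 124, 94.6 and 95.3 CPM in the untreated deletion strain and 15.5, 14.1 and 12.4 CPM with MMS. All 3 were lower in each treated library than in each untreated library. RRS1 fell by 2.74 ± 0.16 in the wild type and 2.44 ± 0.16 in the deletion strain, RPF2 by 2.34 ± 0.18 and 2.39 ± 0.18, and BRX1 by 2.31 ± 0.20 and 2.90 ± 0.20. RPF1, of the Nsa1 module, fell by 1.09 ± 0.23 and 0.92 ± 0.23, and under library-size scaling its call in the deletion strain was lost (-0.38, adjusted p = 0.267).

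SSF1 and SSF2 are paralogs with redundant functions, and reads may be shared between them, since the treatment of reads with several alignments is not given in the sources used here. SSF1 stood at 31.9, 34.3 and 36.1 CPM in the untreated wild type and 4.84, 10.1 and 8.54 CPM with MMS, and 29.2, 25.5 and 24.1 CPM in the untreated deletion strain and 7.55, 7.23 and 6.47 CPM with MMS. SSF2 stood at 12.6, 15 and 14.3 CPM in the untreated wild type and 4.22, 7.68 and 7.14 CPM with MMS, and 13.8, 14.2 and 10.6 CPM in the untreated deletion strain and 10.8, 10.8 and 10.5 CPM with MMS. In SSF1 the treated libraries of both strains lie below all untreated ones, and the treated strains overlap. In SSF2 the treated deletion libraries lie above the treated wild type libraries and overlap with the untreated deletion libraries. SSF1 fell by 2.11 ± 0.20 in the wild type (adjusted p = 7.86e-07) and 1.89 ± 0.20 in the deletion strain (adjusted p = 1.54e-06). SSF2 fell by 1.13 ± 0.19 in the wild type (adjusted p = 1.43e-04), and in the deletion strain its value was -0.26 ± 0.19 (adjusted p = 0.211), or 0.29 under library-size scaling (adjusted p = 0.309).

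The 4 factors at the second internal spacer mark the end of the precursor that is trimmed last. CIC1 and NOP15 bind the spacer RNA, RLP7 resembles ribosomal protein L7, and NOP53 recruits the exosome through the helicase Mtr4. NOP15 stood at 13.9, 14.6 and 12 CPM in the untreated wild type and 1.48, 1.2 and 2.18 CPM with MMS, and 14.9, 8.85 and 8.15 CPM in the untreated deletion strain and 2.65, 2.24 and 2.41 CPM with MMS. CIC1 stood at 67, 83.7 and 83.4 CPM in the untreated wild type and 9.46, 17.8 and 14.9 CPM with MMS, and 81.7, 57.6 and 64.3 CPM in the untreated deletion strain and 11.1, 8.6 and 8.25 CPM with MMS. NOP53 stood at 11, 14.1 and 11.3 CPM in the untreated wild type and 2.28, 3.05 and 2.88 CPM with MMS, and 11.3, 8.3 and 7.8 CPM in the untreated deletion strain and 5.02, 5.05 and 5.75 CPM with MMS. In NOP53 the treated deletion libraries lie between the treated wild type libraries and the untreated ones, with no overlap. NOP15 fell by 3.05 ± 0.26 in the wild type, the largest fall of the 52, and by 2.13 ± 0.24 in the deletion strain, on 48 to 163 counts in treated libraries. CIC1 fell by 2.47 ± 0.21 and 2.87 ± 0.22, RLP7 by 1.95 ± 0.14 and 2.07 ± 0.14, and NOP53 by 2.14 ± 0.17 and 0.79 ± 0.17. The call of NOP53 in the deletion strain was lost under library-size scaling (-0.25, adjusted p = 0.319).

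Late factors prepare export and the last cytoplasmic steps. ARX1, an export factor that contacts the nuclear pore, stood at 295, 284 and 295 CPM in the untreated wild type and 64.1, 68.5 and 64.9 CPM with MMS, and 202, 221 and 215 CPM in the untreated deletion strain and 27.6, 27.9 and 25.2 CPM with MMS. NMD3, the adaptor to the exportin Crm1, stood at 298, 271 and 294 CPM in the untreated wild type and 68.1, 72.9 and 77 CPM with MMS, and 194, 226 and 200.2 CPM in the untreated deletion strain and 40.2, 37.2 and 35.3 CPM with MMS. RIX1, of the complex that acts with Rea1, stood at 110.3, 109 and 116 CPM in the untreated wild type and 35.3, 37.8 and 36.6 CPM with MMS, and 77.8, 91 and 82.3 CPM in the untreated deletion strain and 14.6, 14.1 and 13.9 CPM with MMS. These 3 had the same order of groups as ERB1, without overlap. ARX1 fell by 2.14 ± 0.07 in the wild type and 2.98 ± 0.07 in the deletion strain, NMD3 by 1.98 ± 0.08 and 2.46 ± 0.08, and RIX1 by 1.61 ± 0.07 and 2.56 ± 0.07. RLP24, a placeholder for ribosomal protein L24, stood at 56.1, 59.7 and 60.2 CPM in the untreated wild type and 5.94, 12.4 and 11.9 CPM with MMS, and 59.1, 43.1 and 40.8 CPM in the untreated deletion strain and 10.9, 9.22 and 10.02 CPM with MMS. TIF6, which keeps the large subunit from joining the small one, stood at 644, 577 and 556 CPM in the untreated wild type and 426, 318 and 308 CPM with MMS, and 365, 475 and 457 CPM in the untreated deletion strain and 154, 151 and 144 CPM with MMS. TIF6 had the second smallest fall in the wild type, 0.76 ± 0.13 (adjusted p = 1.65e-04), and replicate 1 of the treated wild type was its highest there. In the deletion strain it fell by 1.53 ± 0.13 (adjusted p = 1.91e-07), and RLP24 fell by 2.53 ± 0.23 and 2.25 ± 0.22. The ribosomal protein genes that RLP24 and RLP7 resemble also fell, RPL24A by 2.64 ± 0.23 and 2.97 ± 0.23, RPL24B by 2.41 ± 0.27 and 2.35 ± 0.26, RPL7A by 2.14 ± 0.11 and 3.44 ± 0.12, and RPL7B by 1.36 ± 0.14 and 2.13 ± 0.14. Each of these paralog pairs can share reads.

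The other 12 factors are nucleolar proteins of varied function. NIP7, which binds Nop8 and the exosome, stood at 205, 235 and 199.6 CPM in the untreated wild type and 32.4, 45 and 36.4 CPM with MMS, and 144, 135 and 156 CPM in the untreated deletion strain and 14.6, 14.8 and 11.7 CPM with MMS. NOP13, an RNA-binding protein, stood at 54, 56.3 and 56.7 CPM in the untreated wild type and 7.73, 11.3 and 11.9 CPM with MMS, and 44.8, 35.8 and 39.6 CPM in the untreated deletion strain and 5.37, 5.76 and 4.85 CPM with MMS. RRP14, needed for early particles of both subunits, stood at 4.43, 6.17 and 5.42 CPM in the untreated wild type and 0.893, 1.02 and 0.89 CPM with MMS, and 5.46, 5.27 and 3.68 CPM in the untreated deletion strain and 2.27, 1.67 and 1.3 CPM with MMS. The treated deletion strain was the lowest group in NIP7 and NOP13, while in RRP14 the treated wild type was the lowest. NIP7 fell by 2.49 ± 0.13 in the wild type and 3.41 ± 0.14 in the deletion strain, NOP13 by 2.43 ± 0.15 and 2.91 ± 0.15, and RRP14 by 2.51 ± 0.24 and 1.46 ± 0.22. The treated wild type libraries held only 29, 46 and 47 counts of RRP14. RRB1, the chaperone of ribosomal protein Rpl3, fell by 2.09 ± 0.14 and 2.55 ± 0.15, and NSA2, a factor of the middle steps, by 1.91 ± 0.11 and 2.31 ± 0.11. NOP4 and NOP12, RNA-binding proteins of early particles, changed by -1.91 and -2.35 in the wild type and by -1.99 and -1.82 in the deletion strain. NOP8, of the Npa1 complex, changed by -1.04 and -0.78, and EBP2 by -2.36 and -1.96. NOP16, LOC1 and RRP15 changed by -1.65, -1.79 and -1.94 in the wild type and by -1.17, -1.31 and -1.24 in the deletion strain, with RRP15 on 17 to 158 counts per library. In the deletion strain the calls of NOP8 (-0.23, adjusted p = 0.332) and RRP15 (-0.71, adjusted p = 0.0812) were lost under library-size scaling.

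**Figure D2:**
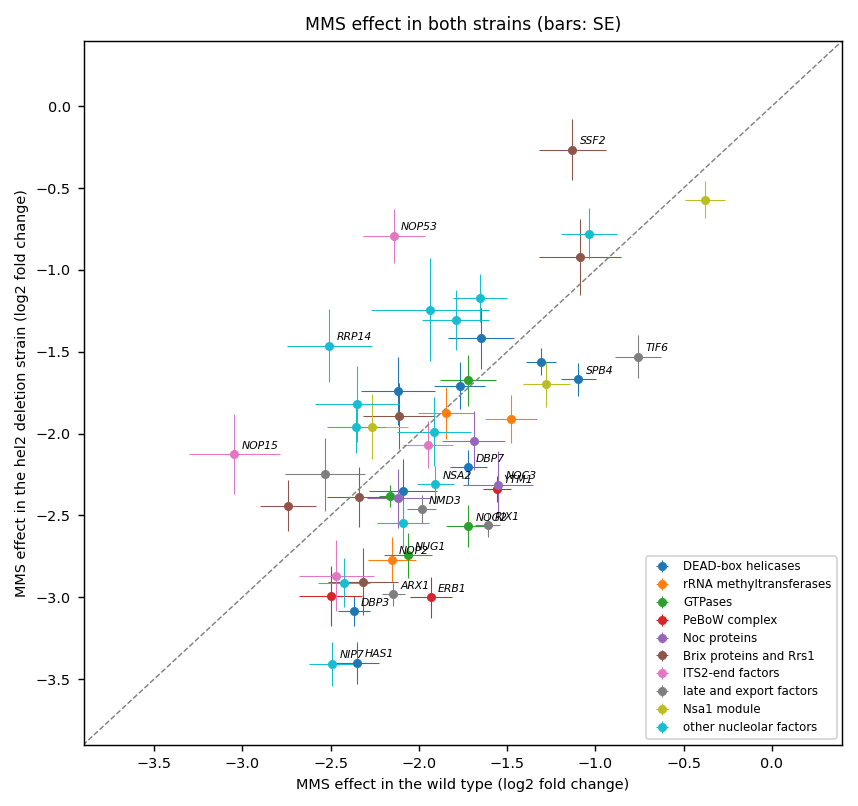
MMS effect on each of the 52 genes in the wild type (horizontal axis, log2 fold change) and in the hel2 deletion strain (vertical axis, log2 fold change), with SE bars, coloured by role. The dashed line marks equal effects. Genes with a name passed the test of the difference between the effects: NOP53, RRP14, NOP15 and SSF2 lie above the line, and the other named genes, among them HAS1, ERB1 and NIP7, lie below it.

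Without MMS, 8 of the 52 factors were lower in the deletion strain than in the wild type and none was higher past the threshold, where 3.33% of all genes were lower and 5.25% higher. The median log2 difference was -0.27 for the factors and 0.01 for all genes. The fitted value was below 0 for 51 of the 52, NOC3 being the exception, and untreated libraries of the strains did not overlap for 26 of the 52, where 31.9% of all genes had no overlap. The 8 genes were NIP7 at -0.55 ± 0.12 (adjusted p = 0.0146), NMD3 at -0.48 ± 0.08 (adjusted p = 0.00292), YTM1 at -0.47 ± 0.08 (adjusted p = 0.00264), TIF6 at -0.45 ± 0.13 (adjusted p = 0.0469), ARX1 at -0.45 ± 0.06, NOG1 at -0.43 ± 0.06, RIX1 at -0.41 ± 0.07 and DBP3 at -0.41 ± 0.09. Of the 5 late and export factors, NMD3, ARX1, RIX1 and TIF6 are among them and RLP24 is not. By level in the untreated wild type, which is part of this comparison, 7 of the 8 are among the highest 13 genes. The other 1 is among the next 13. The call of TIF6 was lost in 11 of 20 alternatives, among them median-ratio scaling (adjusted p = 0.0562), the replicate block (adjusted p = 0.0864) and the omission of any 1 untreated library or any 1 treated deletion library. The calls of NMD3, RIX1, YTM1 and NOG1 were lost only under library-size scaling, and that of ARX1 in none. NIP7 lost its call in 3 alternatives, under library-size scaling (adjusted p = 0.126) and without replicate 2 of either untreated strain. DBP3 lost its call in 4, in the same settings and without replicate 3 of the untreated wild type. In the role groups without a call, the largest values were -0.47 ± 0.15 for RRS1 (adjusted p = 0.069), -0.41 ± 0.16 for NOP53 (adjusted p = 0.157), -0.30 ± 0.15 for RRP8, -0.23 ± 0.19 for MAK16 and -0.19 ± 0.17 for MAK21. RRS1 did pass in 6 alternatives, among them DESeq2 (adjusted p = 0.0105), limma-voom (adjusted p = 0.0318) and median-ratio scaling (adjusted p = 0.0457). DRS1 had a value of -0.54 ± 0.18, of similar size to NIP7, and did not pass (adjusted p = 0.0969).

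The number of calls without MMS depended on the setting more than in the other comparisons. It was 2 under library-size scaling, 15 with DESeq2, 21 with only the libraries compared, and 26 when replicate 1 of the treated wild type was left out of the shared estimate of spread. In the run with 26 calls, 1163 genes passed in all, where the main fit had 215 lower and 339 higher. Leaving out replicate 2 of the untreated wild type or replicate 2 of the untreated deletion strain gave 5 each. For the runs with 2, 21 and 5 calls the share of all genes passing is not given here.

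With MMS, 30 of the 52 factors were lower in the deletion strain than in the wild type and 3 were higher, where 29.8% of all genes were lower and 32.0% higher, and 19 factors missed the threshold. The median log2 difference was -0.48 for the factors and 0.03 for all genes. A level at least 2-fold lower past the threshold was found for 9 of the 52 and for 7.21% of all genes. The treated strains did not overlap for 33 of the 52, where 68.3% of all genes had no overlap. Without replicate 1 of the treated wild type, 37 were lower and 3 higher, where 29.9% of all genes were lower and 30.9% higher. The factors' median was then -0.69. At least 2-fold lower past the threshold were 16 of the 52 and 433 of all 6500 genes tested. All 33 calls were kept, and the 7 that joined as lower were RPF2 at -0.63, NOP4 at -0.54, LSG1 at -0.48, RRP8 at -0.42, SSF1 at -0.40, RRS1 at -0.35 and DBP10 at -0.34. Under library-size scaling 16 were lower and 7 higher, with a median of -0.16, where the median of all genes was 0.37. The shares of all genes lower and higher in that setting are not given here, so these counts have no background.

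The PeBoW genes and the late and export factors were the role groups with the lowest medians, -1.25 and -1.23. All 3 PeBoW genes were lower, ERB1 at -1.42 ± 0.12 (adjusted p = 5.5e-07), YTM1 at -1.25 ± 0.08 (adjusted p = 5.23e-08) and NOP7 at -0.87 ± 0.17. These medians were -1.32 and -1.07 without replicate 1 of the treated wild type. Among the late factors RIX1 was at -1.36 ± 0.07 (adjusted p = 1.23e-08), ARX1 at -1.29 ± 0.07, TIF6 at -1.23 ± 0.13 and NMD3 at -0.95 ± 0.08, and RLP24 did not pass at -0.02 ± 0.22. The PeBoW genes, ARX1, NMD3 and TIF6 are among the 13 genes with the highest level in the untreated wild type, all of them lower. RIX1 and RLP24 are not, at mean levels of 112 and 58.6 CPM there. Role and level were not separated. The lowest value of all was that of NIP7, -1.47 ± 0.13 (adjusted p = 7.57e-07), a level 2.77-fold lower than in the treated wild type. Next among the helicases stood HAS1 at -1.42 ± 0.12 and DBP3 at -1.12 ± 0.09, and 6 of the 9 helicases were lower. The GTPases NUG1 and NOG2 were at -1.02 ± 0.13 and -0.94 ± 0.12, the methyltransferases NOP2 and SPB1 at -0.91 ± 0.13 and -0.61 ± 0.15, and NOP13 at -0.96 ± 0.15. BRX1 was at -0.81 ± 0.19, NSA1 at -0.63 ± 0.13 and RRP1 at -0.36 ± 0.11. Under library-size scaling the calls of BRX1, NSA1 and RRP1 were lost (adjusted p = 0.107, 0.186 and 0.957). Those of NOP7, SPB1 and NOC3 were lost there too (adjusted p = 0.0517, 0.236 and 0.184). RRP1 was also lost without replicate 3 of the treated deletion strain (adjusted p = 0.0609). NOC3, NOC2 and MAK21 were lower at -0.74 ± 0.20, -0.47 ± 0.18 and -0.47 ± 0.17, and CIC1 at -0.60 ± 0.21. The libraries of NOC2, MAK21 and CIC1 overlapped between the treated strains, and these 3 calls were lost in several settings, among them without replicate 3 of the treated wild type (adjusted p = 0.115, 0.127 and 0.0676).

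The 3 genes that were higher in the treated deletion strain are NOP53 at 0.94 ± 0.17 (adjusted p = 4.01e-04), RRP14 at 0.89 ± 0.24 (adjusted p = 0.00581) and SSF2 at 0.75 ± 0.19 (adjusted p = 0.00403). Means were 2.74 ± 0.404 against 5.27 ± 0.413 CPM for NOP53 (SD, n = 3), 0.936 ± 0.0761 against 1.75 ± 0.488 CPM for RRP14, and 6.35 ± 1.86 against 10.7 ± 0.196 CPM for SSF2, the wild type first. These calls held in every alternative in which the gene was tested. A mean log2 CPM of at least 4 left 42 of the 52 factors for testing, and among those none was higher (28 lower).

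**Figure D3:**
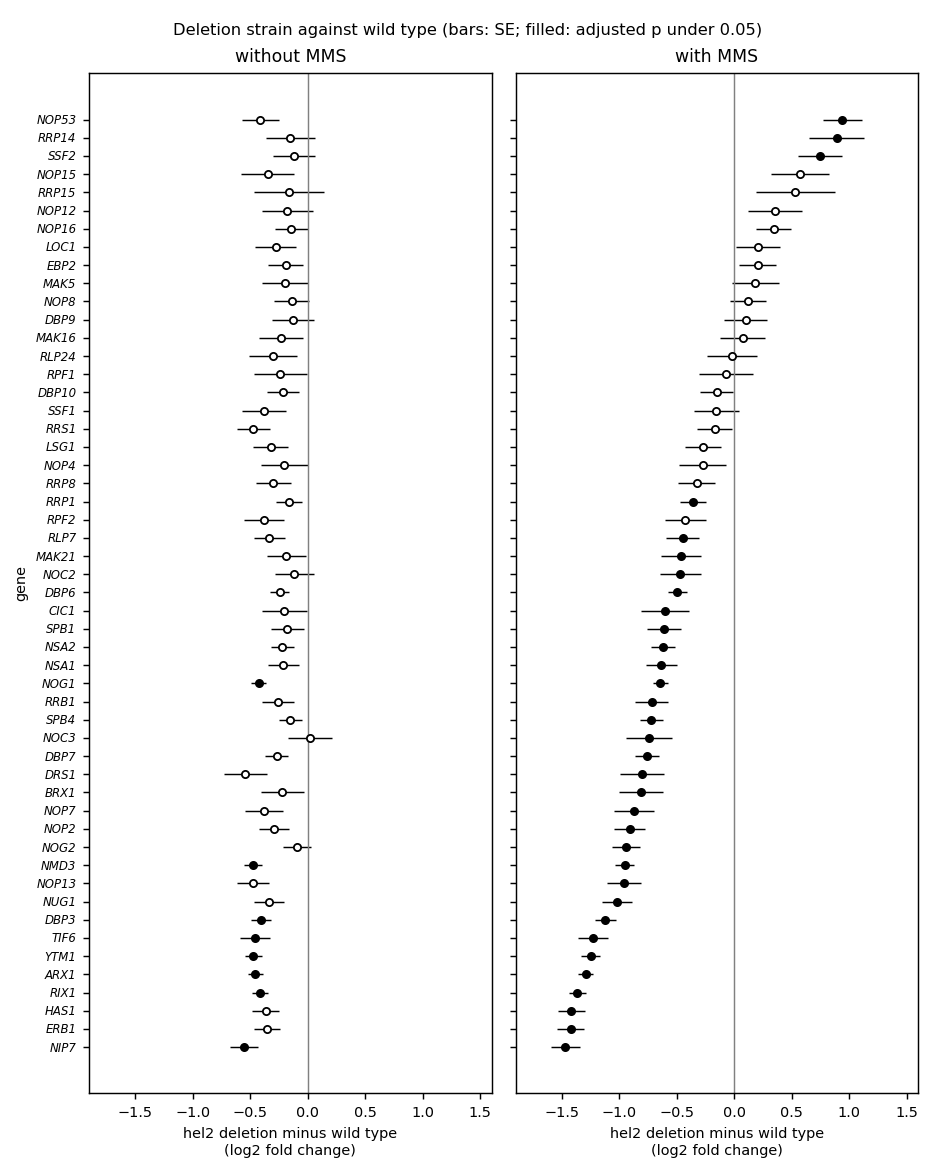
Log2 difference between the hel2 deletion strain and the wild type for each of the 52 genes, without MMS (left) and with MMS (right), with SE bars; filled points have an adjusted p under 0.05 and genes are ordered by the right panel. Without MMS all but NOC3 lie left of 0, down to NIP7 at -0.55, and with MMS they spread from NIP7 at -1.47 to NOP53 at 0.94.

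The difference between the MMS effects of the strains was tested as an interaction in the same fit. The fall was deeper in the deletion strain for 16 of the 52 factors and shallower for 4, where 21.5% of all genes passed below 0 and 18.6% above 0. The other 32 factors missed the threshold. The median was -0.26 for the factors and -0.01 for all genes. The values furthest below 0 were -1.07 ± 0.16 for ERB1 (adjusted p = 3.15e-04), -1.05 ± 0.17 for HAS1 (adjusted p = 3.64e-04), -0.95 ± 0.10 for RIX1 (adjusted p = 1.69e-05) and -0.91 ± 0.18 for NIP7 (adjusted p = 0.00137). Of the late and export factors 4 of 5 passed below 0, and of the PeBoW genes 2 of 3. Of the 16 below 0, 10 are among the 13 genes with the highest level in the untreated wild type, which is part of this comparison. The 4 genes with a shallower fall were NOP53 at 1.35 ± 0.24 (adjusted p = 8.04e-04), RRP14 at 1.04 ± 0.32 (adjusted p = 0.0203), NOP15 at 0.92 ± 0.34 (adjusted p = 0.0478) and SSF2 at 0.87 ± 0.26 (adjusted p = 0.0201). NSA1, MAK16 and RRP1 all missed the threshold, NSA1 with -0.42 ± 0.19 (adjusted p = 0.0923). Without replicate 1 of the treated wild type 25 passed below 0 and 3 above, with a median of -0.40. Of all genes, 23.3% passed below 0 and 20.2% above 0 in that run. Of the 20 calls 18 were kept, and those of NOC3 (adjusted p = 0.0539) and NOP15 (adjusted p = 0.0784) were lost. Another 10 factors joined below 0, NSA1 (-0.59) and NOP7 (-0.70) among them, and with NOP7 all 3 PeBoW genes passed. Under library-size scaling 7 passed below 0 and 4 above, with a median of -0.04, where the median of all genes was 0.23. For these counts too the shares of all genes are not given here.

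**Figure D4:**
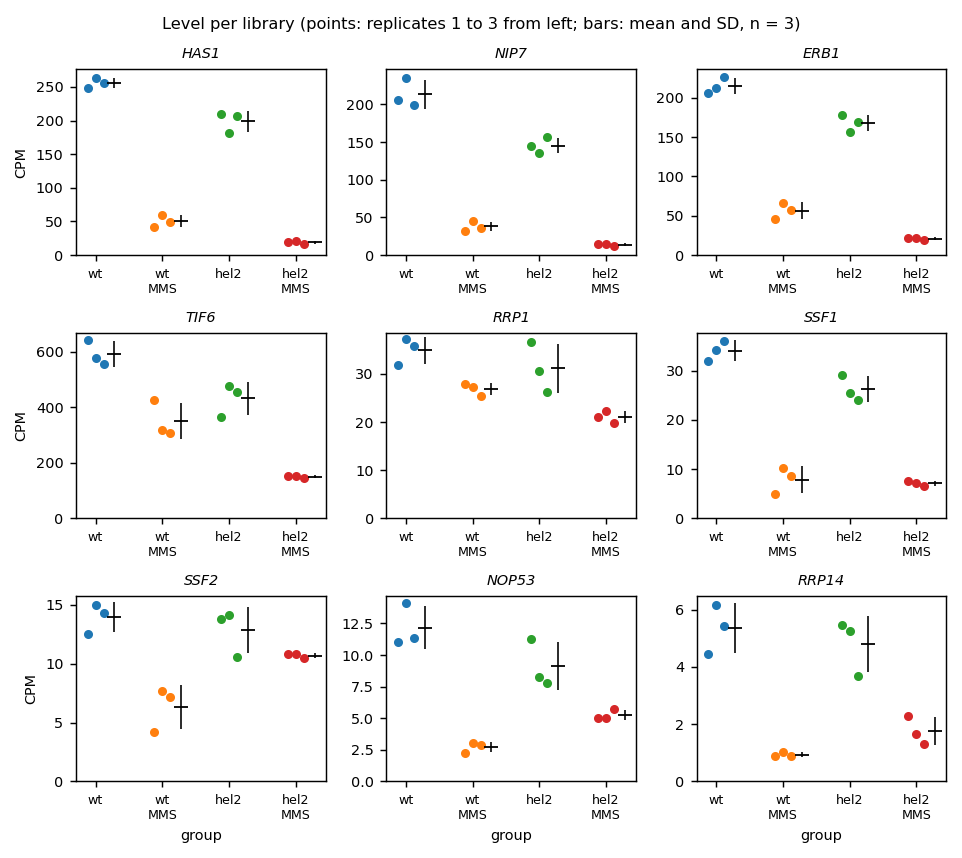
CPM in each library (points, replicates 1 to 3 from left to right) with mean and SD (n = 3) for 9 of the 52 genes, by group: wild type, treated wild type, deletion strain, treated deletion strain. HAS1, NIP7 and ERB1 are lowest in the treated deletion strain, and SSF1 overlaps between the treated strains. In the wild type TIF6 and RRP1 keep more of their level than the other genes shown. SSF2, NOP53 and RRP14 are higher in the treated deletion strain than in the treated wild type.

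Among the 52 genes, the difference between the treated strains went with how many reads a gene had. Across the genes, the mean log2 CPM in the untreated wild type, whose libraries are not in this comparison, and the log2 difference between the treated strains had a Spearman correlation of -0.85 (n = 52 genes). The genes share the same libraries, are not independent replicates, and CPM also depends on gene length, so the value is a description. In the 13 genes with the lowest level, from 2.52 to 33 CPM, 3 were higher, none was lower and the median difference was 0.34. In the next 13, up to 78.4 CPM, 7 were lower, with a median of -0.43. In the third 13, up to 151 CPM, 10 were lower, with a median of -0.50. All 13 genes with the highest level, from 152 to 592 CPM, were lower, with a median of -1.12. Without replicate 1 of the treated wild type the correlation was -0.84, and the medians of the 4 sets, from the lowest level to the highest, were 0.25, -0.63, -0.69 and -1.18, with 1, 10, 13 and 13 of 13 genes lower. For the MMS effect the same correlation was -0.69 in the deletion strain and -0.05 in the wild type, and the medians of the 4 sets ran from -1.31 to -2.74 in the deletion strain and from -1.91 to -2.09 in the wild type. The wild type value uses the untreated wild type on both axes. For the difference between treated strains the correlation was -0.85 over 72 genes of the small subunit's assembly, -0.57 over 40 other large-subunit factors and -0.36 over all 6463 genes. What lies behind the relation was not tested.

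**Figure D5:**
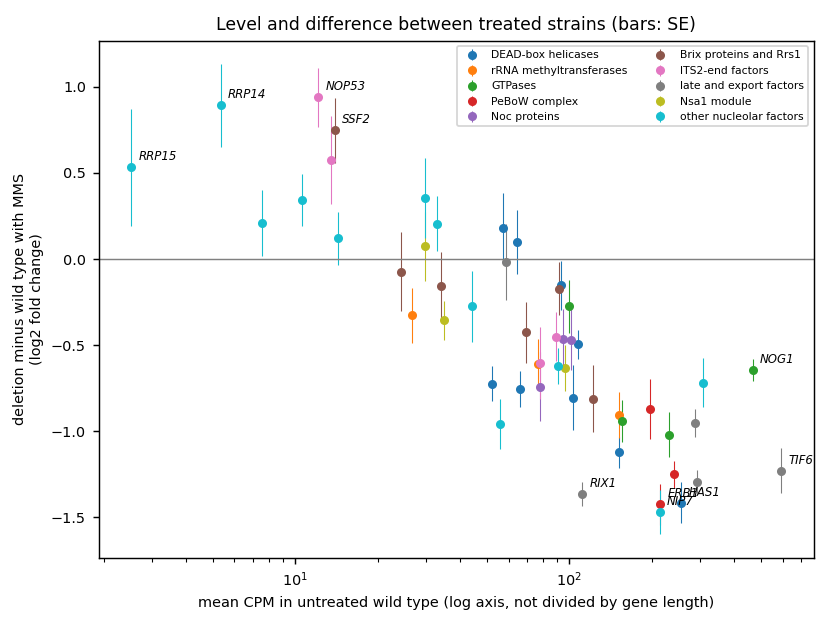
Mean CPM of each of the 52 genes in the untreated wild type (horizontal log axis, not divided by gene length) against the log2 difference between the treated deletion strain and the treated wild type (vertical axis, SE bars), coloured by role. The genes above 0 past the threshold, NOP53, RRP14 and SSF2, lie at the left, and the 13 genes with the highest level all lie below 0.

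Other genes of large-subunit assembly, 40 in a list that holds none of the 52, moved alongside. In the wild type 35 fell and 1 rose, with a median of -1.50, and in the deletion strain 36 fell and 2 rose, with a median of -1.48. Of all genes, 34.2% fell and 35.6% rose in the wild type, and 36.2% and 39.2% in the deletion strain. The largest falls in the wild type were those of DBP2, a DEAD-box helicase, by 3.36 ± 0.19, ECM1, an export factor, by 2.71 ± 0.20, and MRT4, which holds the place of the stalk protein Rpp0, by 2.60 ± 0.22. The gene that rose in both strains, named after its value was seen, was REH1, a cytoplasmic factor and paralog of REI1, by 1.23 ± 0.10 and 1.93 ± 0.11. Between the treated strains 21 of the 40 were lower in the deletion strain and 5 higher, where 29.8% of all genes were lower and 32.0% higher. RSA4, the Rea1 substrate of the nucleoplasmic particle, was at -1.73 ± 0.08 and SYO1, which imports Rpl5 and Rpl11, at -1.22 ± 0.15. REI1, a cytoplasmic factor that acts on Arx1, was at -1.62 ± 0.47 (adjusted p = 0.0132), with 56.6, 14.9 and 14.5 CPM in the treated wild type and 8.88, 10.2 and 8.78 CPM in the treated deletion strain. REI1 was at -0.67 ± 0.09 (adjusted p = 1.61e-05) once replicate 1 of the treated wild type, its high library, was left out, and with only the libraries compared it missed the threshold (adjusted p = 0.0509). Genes of the small subunit's assembly fell in 72 of 72 cases in the wild type and 69 in the deletion strain, with medians of -1.60 and -1.86. The 81 ribosomal protein genes of the large subunit had medians of -2.18 and -3.02. Between the treated strains these lists had medians of -0.41 and -0.90, set beside -0.48 for the 52 factors. Without replicate 1 of the treated wild type they were -0.59 and -0.99, beside -0.69 for the 52. In that run 25 of the 40 other factors were lower and 4 higher, where 29.9% of all genes were lower and 30.9% higher. In the wild type alone, the medians without that library were -1.42 for the 40, -1.49 for the small-subunit genes and -2.12 for the ribosomal protein genes. Differences between the lists were not tested.

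Of 17 genes that regulate the regulon or growth signalling, 4 rose and 10 fell in the wild type, and 4 and 10 in the deletion strain. Of all genes, 35.6% rose and 34.2% fell in the wild type, and 39.2% and 36.2% in the deletion strain. The 4 that rose in each strain, named here after their values were seen, differ in role. DOT6, the paralog of TOD6 and a repressor, rose by 0.82 ± 0.11 in the wild type and 0.48 ± 0.11 in the deletion strain, and STB3, also a repressor, by 0.47 ± 0.15 and 0.64 ± 0.14. CRF1, a corepressor of ribosomal protein genes, rose by 1.16 ± 0.24 and 0.77 ± 0.23, and SFP1, the activator, by 0.25 ± 0.09 (adjusted p = 0.0262) and 0.40 ± 0.09. Several of these calls hang on single libraries or on the fit. In the wild type SFP1 missed the threshold when replicate 2 or replicate 3 of the untreated or replicate 3 of the treated libraries was left out (adjusted p = 0.113, 0.0632 and 0.0545), as did STB3 without replicate 3 of the treated libraries (adjusted p = 0.0607). With only the libraries compared, the calls of SFP1 in the wild type (adjusted p = 0.0843) and CRF1 in the deletion strain (adjusted p = 0.0581) were lost. SFP1 also missed it without replicate 1 of the treated wild type (0.15, adjusted p = 0.0955), where 3 of the 17 rose and 11 fell. Of all genes, 35.4% rose and 33.6% fell in that run. TOD6, the third repressor, fell by 1.82 ± 0.12 and 2.77 ± 0.12, from 102, 108 and 117 CPM to 25.4, 34.7 and 32.4 CPM in the wild type and from 99.2, 92.8 and 92.4 CPM to 14.8, 14.8 and 12.1 CPM in the deletion strain. TOD6 libraries were lower with MMS in both strains and lowest in the treated deletion strain, at -1.15 ± 0.12 against the treated wild type. IFH1, a coactivator of ribosomal protein genes, fell by 1.21 ± 0.16 in the wild type, was at -0.31 ± 0.15 in the deletion strain (adjusted p = 0.0795), and differed between the effects by 0.89 ± 0.22 (adjusted p = 0.00611). FHL1, the factor that Ifh1 binds, fell by 1.16 ± 0.16 and 0.87 ± 0.16. In the deletion strain under library-size scaling IFH1 turned to 0.24 (adjusted p = 0.339) and FHL1 was lost (-0.31, adjusted p = 0.213). These are transcript levels, and the activity of the regulators was not measured.

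In the order of protein-coding genes in RefSeq assembly R64, no 2 of the 52 lie next to each other, and 8 lie next to a gene of another list used here. The locus names place NSA2 and LCP5, SSF1 and RRP3, and MAK5 and BMT2 on opposite strands, pointing away from each other. In the wild type NSA2 changed by -1.91 and LCP5, of the small subunit's processome, by -0.78, and SSF1 by -2.11 and RRP3, a helicase of the small subunit, by -0.88. MAK5 changed by -2.12, whereas BMT2 did not pass at 0.17. The other pairs are NMD3 with DBP8, RIX1 with UTP9, NOC3 with CMS1, NOG2 with ESF2 and RRP15 with NOC4, and both genes fell in each of them in the wild type, from -0.75 for UTP9 to -2.27 for CMS1. Whether the counting used strand is not given in the sources used here, and without it overlapping neighbours cannot be told apart.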

How the data were processed

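The authors deposited 1 table of counts of reads by gene, with 1 column per library. Poly(A) libraries had been made with oligo-dT beads, per the labels' protocols, and STAR 2.5.1a, Subread, featureCounts 1.4.6-p5 and Salmon are named, per the submitters' processing notes. Genome build, annotation release, strand setting and the handling of multiply aligned reads: not given in the sources used here. The 97 identifiers on several lines had equal counts and were used once. Chi-square tests of replicate pairs gave at least 63.6 per degree of freedom, and no 2 libraries agreed within counting noise. Whether replicates were separate cultures is given only by the label "Biorep", and p-values measure the spread between these libraries.

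Counts were scaled by TMM, filtered with filterByExpr and tested by quasi-likelihood F-test in edgeR 4.0.16 (robust, R 4.3.3) in 1 fit of all 12 libraries without a block, with Benjamini-Hochberg adjustment over 6463 genes. The SE is the size of the log2 fold change divided by the square root of F. On simulated data for MMS in the wild type (6435 genes), 59.7% of 67 genes changed 1.5-fold, 95.5% of 67 changed 2-fold and 95.5% of 66 changed 4-fold were recovered. Only these genes were changed, up and down in equal number, so recovery under a change of most genes was not tested. Same-numbered wild type libraries without and with MMS had deviations that correlated at 0.24, 0.09 and 0.07, and the other 15 same-numbered pairs at -0.38 to 0.07, which does not establish a pairing.

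The members, gene lists and comparisons were chosen with earlier results of these data known. The rule for names allows every member. It gives library values for up to 2 members with the largest change per role group and comparison, and names up to 3 genes per other list and comparison. SSF1, REH1, BMT2, DOT6, STB3, SFP1, CRF1, the other neighbours and the ribosomal protein genes named beside members were added after their values were seen, or for their kinship or place. Alternatives were median-ratio scaling, library-size scaling, DESeq2 1.42.0, limma-voom (limma 3.58.1), a replicate block, a minimum mean log2 CPM of 4, no filter at all, fits restricted to the compared libraries, and leaving out each library in turn, where the spread was estimated over all groups. A block by replicate number, fitted to wild type libraries only, was added after the data were seen. No genome or sequence table was used here, so no sequences are given.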

Additional observations from a re-analysis of the deposited data

Results flagged for a closer look

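For 20 of the 52 factors the MMS effect differed between the strains by the interaction test of edgeR, at an adjusted p under 0.05 over all genes, with 3 libraries per group. Of all genes, 21.5% passed below 0 and 18.6% above 0 in the same test, and of the 52 factors 30.8% and 7.69%. The value in brackets is the log2 effect in the deletion strain minus that in the wild type. Values below 0, a deeper fall in the deletion strain, were found for ERB1 (-1.07), HAS1 (-1.05), RIX1 (-0.95), NIP7 (-0.91), NOG2 (-0.85), ARX1 (-0.84), YTM1 (-0.78), TIF6 (-0.77), NOC3 (-0.76), DBP3 (-0.71), NUG1 (-0.68), NOP2 (-0.62), SPB4 (-0.57), DBP7 (-0.49), NMD3 (-0.48) and NSA2 (-0.40). Values above 0, a shallower fall, were found for NOP53 (1.35), RRP14 (1.04), NOP15 (0.92) and SSF2 (0.87). Adjusted p-values ran from 1.69e-05 to 0.0478. Under library-size scaling, 7 of the 52 passed below 0 and 4 above, without the shares of all genes in that setting. NOC3, NOP15 and NSA2 each lost their call in many alternatives, with 15, 12 and 13 losses.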

How the results depend on the processing

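No member that passed in a comparison turned its direction in any alternative run. The calls held in every alternative that tested the gene for 51 of 52 members lower with MMS in the wild type, 46 of 51 in the deletion strain, 1 of 8 lower in the untreated deletion strain (ARX1), 16 of 30 lower and 3 of 3 higher in the treated deletion strain, and 7 of 16 below 0 and 1 of 4 above 0 (NOP53) in the difference of effects. With library-size scaling the members' medians were -1.64 and -1.55 for MMS in the wild type and in the deletion strain, -0.16 between the treated strains and -0.040 for the difference of effects. In that setting 2 members were lower without MMS, 16 lower and 7 higher with MMS, and 7 below 0 in the difference, while SSF2 in the deletion strain turned to 0.29, passing in neither setting. The shares of all genes called under library-size scaling are not given here. The scaling subtracts a shift common to all genes, and which scaling is nearer to amounts per cell was not tested. For the deletion without MMS, DESeq2 called 15 members lower and 839 genes in all, and only the libraries compared gave 21 members. At a mean log2 CPM of at least 4 no member was higher with MMS or in the difference (0 and 0), since NOP53, RRP14, SSF2 and NOP15 were not tested there.

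Leaving out 1 library at a time gave 5 to 26 members lower and 305 to 1163 genes passing without MMS, the highest of both without replicate 1 of the treated wild type. With MMS it gave 3 to 5 members higher, the most without replicate 1 of the untreated deletion strain, and medians of -0.69 to -0.37. The difference of effects had 2 to 7 members above 0 and 13 to 25 below. With the replicate block, members lower and higher numbered 52 and 0 for MMS in the wild type, 51 and 0 in the deletion strain, 7 and 0 without MMS, 29 and 3 with MMS, and 14 and 3 in the difference, and the block in the wild type libraries alone gave 52 lower. The fewest counts in any library were 17 for RRP15, 29 for RRP14, 48 for NOP15, 74 for NOP53 and 76 for LOC1.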
